A study of Danio rerio with 4 samples.

Results

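The cytosolic ribosomal proteins are the protein part of the ribosome outside mitochondria. Array probes were taken as members where the gene name in the scanner files, or the current symbol of the probe's RefSeq accession, starts with rpl, rps or rplp followed by a digit, with the rps6k kinases left out. This gave 123 of the 21495 probes on the array and 66 of its 8751 named genes, 39 of them for the large subunit and 27 for the small subunit. The rule uses names alone.

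A ribosome is built from ribosomal RNA and many small, mostly basic proteins, which fall into a small subunit that reads the mRNA and a large subunit that joins amino acids. The proteins are made in the cytosol, carried to the nucleolus and assembled there in near equal amounts. In zebrafish, Muller glia are the support cells of the retina, and after injury they return to the cell cycle and give rise to retinal progenitors.

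RNA from adult zebrafish retinal cells was hybridised to 4 single-colour Agilent arrays, 1 sample per array. Progenitors derived from Muller glia (n = 2) came from 1016 tuba1a:gfp transgenic fish, in which GFP is driven by the tuba1a promoter, 4 days after a needle injury to the retina. Uninjured Muller glia (n = 2) came from gfap:gfp transgenic fish, in which GFP is driven by the gfap promoter, taken at day 0. The fish were 7 and 8 months old for the 2 progenitor samples and 7 months old for both glia samples. Injury was made with a 30 gauge needle. Injury and transgenic line change together, so their parts cannot be told apart. The labels do not say whether the 2 glia samples came from separate fish, so part of the array-to-array spread behind the p-values may be technical. All 4 arrays sat on 1 slide with 1 scan, so neither separates the groups.

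Signals are given on a log2 scale on which 0 is the 75th percentile of the array's own probes. That percentile lay at intensities of 4816 and 4899 on the progenitor arrays and 4290 and 4464 on the glia arrays. Differences are progenitors minus glia on this scale, with standard errors and Benjamini-Hochberg adjusted p-values from limma over all 16596 probes kept. The brightest member probe stands for a gene. Of the Muller glia marker genes, 5 of 8 were higher in progenitors and 3 were not called, against 27.5% higher and 40.5% lower over all genes tested. Their summed linear signals were 283 and 289 times the 75th percentile in progenitors and 234 and 239 in glia. The brightest of these genes, apoeb, weighs most in the sums, with log2 signals of 6.73 and 6.81 in progenitors against 6.27 and 6.29 in glia. The 3 not called, cahz, glula and aqp1a.1, had log2 differences of 0.14, -0.13 and 0.13. In RNA from many cells, fewer cells of a type and less RNA per cell cannot be told apart.

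Nearly all ribosomal protein genes were higher in progenitors than in uninjured glia, by a similar, modest amount. At an adjusted p under 0.05, 64 of the 66 genes were higher and 2 were lower. Over all 7080 genes tested, 27.5% were higher and 40.5% were lower. The median member difference was 0.62, which is 1.53-fold, against a median of -0.12 over all genes tested. The lower and upper quartiles of the members were 0.52 and 0.78, and the outermost members had differences of 1.18 and -0.82.

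The increase did not rest on 1 array. In 64 genes both progenitor arrays lay above both glia arrays, and in 2 genes both lay below. These patterns held for 34.9% and 53.1% of all genes tested. The median deviation of the members from their own 4-array mean was 0.29 and 0.33 on the progenitor arrays and -0.32 and -0.31 on the glia arrays. Arrays of the same group differed far less, by a median of 0.05 between the progenitor arrays and 0.03 between the glia arrays. Of the higher genes, 64 of 64 had a difference larger than either of these replicate differences in the same gene, and the smallest gap between the groups was 0.23. The calls draw on the same replicate spread, so the 64 of 64 adds no separate support.

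Markers of other cells also differed between the groups, where 27.5% of all genes tested were higher in progenitors and 40.5% were lower. Microglia and leukocyte genes were higher in 6 of 7, with summed linear signals of 13.6 and 13.2 times the 75th percentile in progenitors and 3.82 and 3.81 in glia, il1b and c1qb among them. Cone genes were lower in 7 of 7 (278 and 282 in progenitors, 475 and 461 in glia) and rod genes in 2 of 2 (24.8 and 26.3 in progenitors, 33.8 and 33.9 in glia). Of the rod genes, gnb1b makes up nearly all of these sums, with log2 signals of 4.62 and 4.70 in progenitors against 5.06 and 5.06 in glia. The other, saga, was dim, with -1.95 and -1.94 in progenitors against -1.34 and -1.35 in glia. Erythrocyte genes were lower in 5 of 5 (32.6 and 33.5 in progenitors, 64.1 and 63.3 in glia). Surface epithelium genes were lower in 5 of 6 and higher in 1 (13.5 and 13.3 in progenitors, 23.0 and 22.8 in glia). The higher gene, krt8, makes up most of the progenitor sums, with log2 signals of 3.60 and 3.58 in progenitors against 1.92 and 1.89 in glia. The median log2 difference of the 6 genes was -4.04. Inner retinal neuron genes were higher in 2 of 4 and lower in 1 (54.4 and 53.3 in progenitors, 60.5 and 59.8 in glia). The part of these cells in the ribosomal protein result was not tested.

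**Figure D1:**
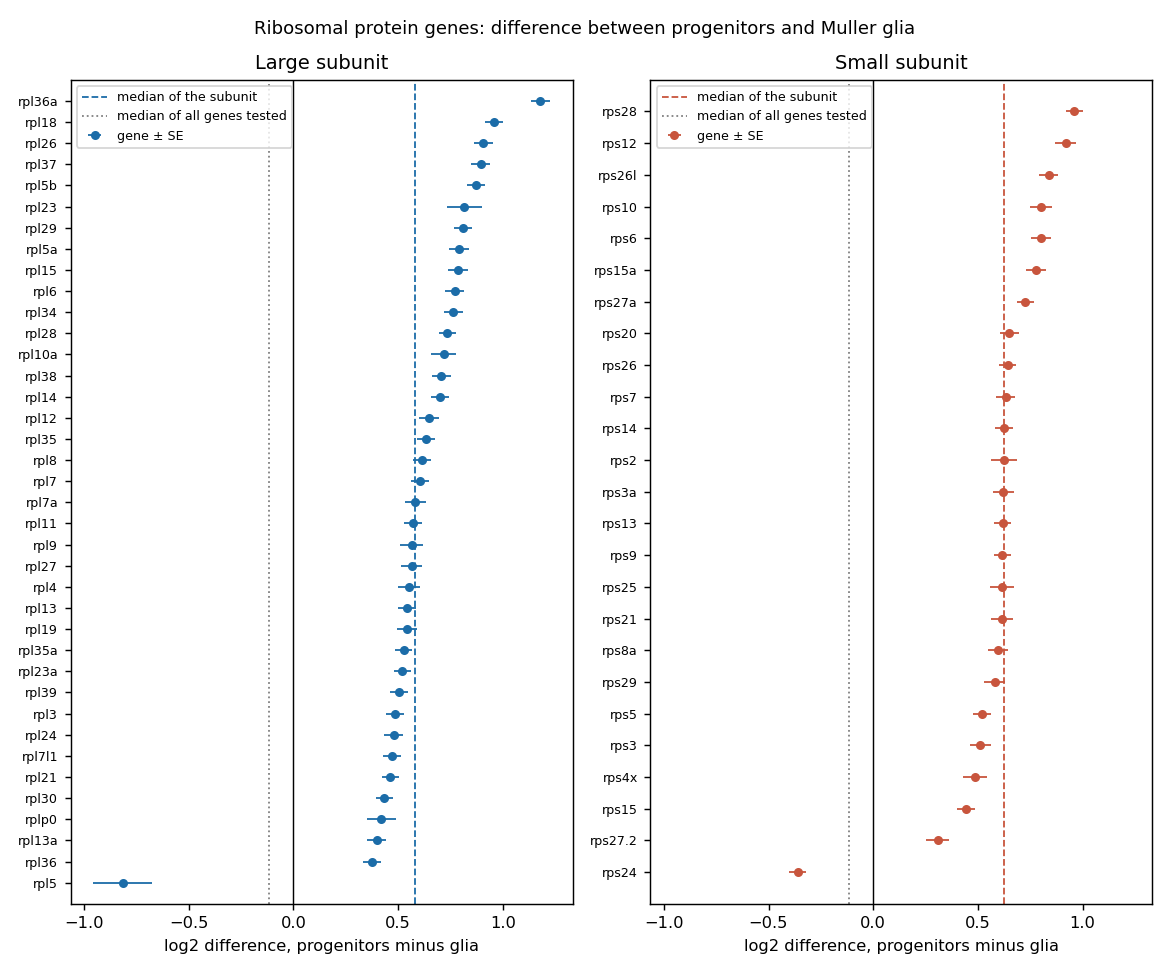
The log2 difference (progenitors minus glia, x axis) is shown for large subunit genes (left) and small subunit genes (right), with bars for the limma standard error. On this scaling all points but rpl5 and rps24 lie right of 0, and the dashed subunit medians stand at 0.58 (large) and 0.62 (small), right of the dotted median of all genes tested at -0.12.

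Both subunits were higher in nearly all of their genes, against 27.5% higher and 40.5% lower over all genes tested. The large subunit had 38 genes higher and 1 lower, with a median of 0.58, and the small subunit had 26 higher and 1 lower, with a median of 0.62. Large minus small gave a difference between medians of -0.04, and -0.05 over the 62 genes with a mean above the 75th percentile. Between arrays of a group the median level of a subunit's genes varied with a pooled SD of 0.022 (large) and 0.0073 (small). The difference between the subunits was not tested, and its sign turned when a gene's probes were averaged, which gave medians of 0.63 (large) and 0.61 (small). Within a subunit the SD over genes was 0.29 (large) and 0.26 (small). The size of both medians depended on the scaling: they were 0.36 (large) and 0.40 (small) with each array's median as the base, and 1.68 and 1.72 with spike-in controls as the base.

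Only 2 members reached a 2-fold increase, against 7.70% of all genes tested. On its only member probe, the gene furthest above the rest was rpl36a. Its protein lies, in yeast and mammals, where spent tRNA leaves the large subunit. It read 4.69 and 4.75 on the progenitor arrays, against 3.54 and 3.54 on the glia arrays. Both progenitor values lay well above both glia values, which were almost equal. The difference was 1.18 ± 0.05 (SE), or 2.26-fold, with a limma adjusted p of 0.000307. This put rpl36a 3.04 scaled median absolute deviations above the median of the members, just past the limit of 3 used to call a member deviating. Outside the naming rule, 2 probes described as L36A lie on the same strand of chromosome 5. They were higher by less, 0.87 and 0.99. The probe with 0.87 was brighter than the member probe, with a 4-array mean of 5.06 against 4.13. Whether they measure rpl36a was not tested.

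In the small subunit, rps28 encodes a protein near the path by which mRNA leaves the ribosome. It had 4.05 and 4.01 in progenitors, against 3.06 and 3.07 in glia, a difference of 0.96 ± 0.04 (limma adjusted p 0.000409). The pairs were tight and did not overlap.

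Further high members came from both subunits. In the small subunit, rps12 differed by 0.92 and rps26l, a close relative of rps26, by 0.84. In the large subunit, rpl18 differed by 0.96, rpl26 by 0.91 and rpl37 by 0.89. The rpl18 probe was dim, with -1.97 and -1.93 in progenitors against -2.90 and -2.91 in glia, and the groups did not overlap.

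**Figure D2:**
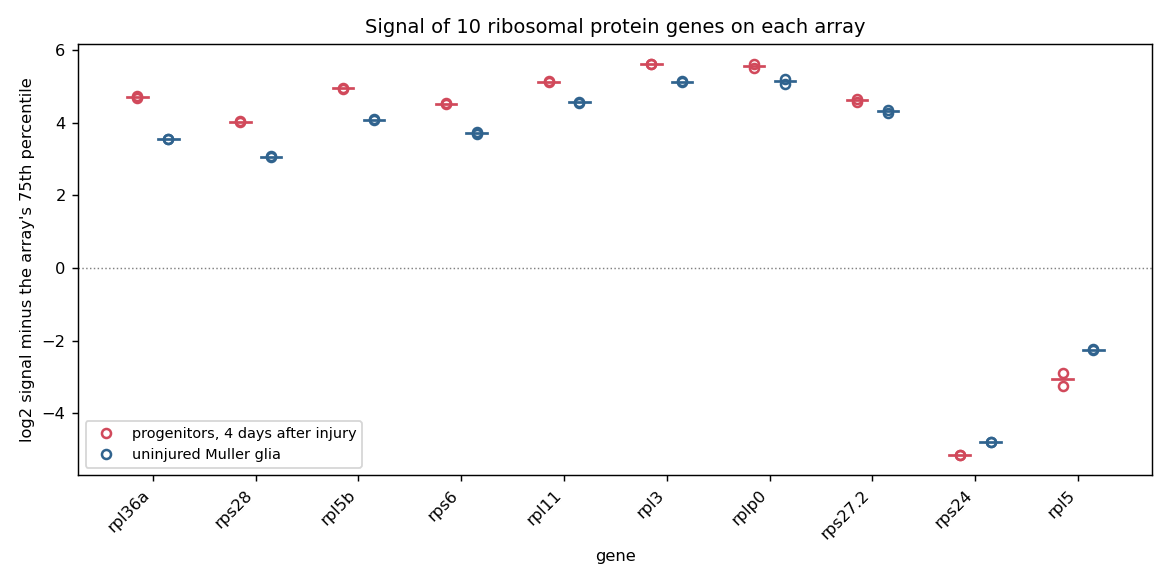
The scaled log2 signal of 10 ribosomal protein genes (x axis) is shown on each array, as the log2 signal minus the array's 75th percentile (y axis). Circles are arrays and bars are group means, with progenitors left of glia for each gene. The progenitor arrays lie above the glia arrays in 8 genes, by 1.18 in rpl36a and 0.31 in rps27.2, and below them in rps24 and rpl5.

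Among the member probes, both lower genes rest on a single dim probe. With spike-in scaling their differences turned to 0.74 for rps24 and 0.28 for rpl5, the latter not called (limma adjusted p 0.131). That scaling put 92.3% of all probes higher. The probe named rps24, for a small subunit protein whose human counterpart is mutated in some patients with the inherited anaemia Diamond-Blackfan anaemia, had -5.16 and -5.16 in progenitors, against -4.80 and -4.81 in glia. The groups were separated by much more than the arrays within them. Its difference was -0.36 ± 0.04 (SE), with a limma adjusted p of 0.00346, and it stood at -5.30 scaled deviations from the members' median. With normexp background correction the rps24 difference was -0.64 and was not called (adjusted p 0.298). The files give this probe no genome position.

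The probe that the files name rpl5 had -3.26 and -2.89 in progenitors, against -2.24 and -2.27 in glia. Both progenitor arrays lay below the glia arrays, and they differed from each other by 0.37, the widest replicate difference among the members. The difference was -0.82 ± 0.14 (SE), or 1.76-fold lower, with a limma adjusted p of 0.0102, and it stood at -7.77 scaled deviations from the median. Without the first glia array the adjusted p was 0.0579, at a difference of -0.80.

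The same probe lies on chromosome 6, positions 17269745 to 17269804, plus strand, in danRer2. The 7 member probes of rpl5b, one of a pair of genes for the protein that binds 5S ribosomal RNA, lie around it on the minus strand, between 17262123 and 17272077. Those 7 probes were all higher, with differences between 0.87 and 1.06. On its brightest probe rpl5b had 4.96 and 4.94 in progenitors, against 4.10 and 4.06 in glia, with no overlap and a limma adjusted p of 0.000517. The other gene of the pair, rpl5a, was higher by 0.79 ± 0.05 (limma adjusted p 0.000758). The rpl5 probe has no RefSeq accession in the files, and its name there is all that places it among the members. The files give the 7 rpl5b probes that same name, and only their RefSeq accession gives them the symbol rpl5b. Counting rpl5 as a gene apart from rpl5b, and so as a lower gene, rests on this naming alone. Whether the probe measures a separate gene was not tested.

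The lowest of the higher members were rps27.2 in the small subunit and rpl36 in the large subunit. For rps27.2, one of the zebrafish genes for a zinc-binding small subunit protein, the values were 4.59 and 4.66 in progenitors, against 4.28 and 4.35 in glia. The gap between the groups was small but wider than the spread within them. Its difference of 0.31 ± 0.06 (limma adjusted p 0.0118) lost the call without the first glia array (0.27, adjusted p 0.0637) and without the second progenitor array (0.27, adjusted p 0.0542). For rpl36 the difference was 0.38 ± 0.04 (limma adjusted p 0.00394), from 0.23 and 0.18 in progenitors and -0.18 and -0.16 in glia. Scaling by the array median ended both calls, at 0.09 for rps27.2 and 0.15 for rpl36.

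The stalk of the large subunit recruits the elongation factors, and rplp0 is the protein at its base. It had 5.51 and 5.61 in progenitors, against 5.20 and 5.08 in glia, a difference of 0.42 ± 0.07 (limma adjusted p 0.00935). The groups did not overlap, and all 5 rplp0 probes were higher, between 0.41 and 0.56. Other low members of the large subunit were rpl13a with 0.40 and rpl30 with 0.43. A bright probe linked to rpl30 outside the naming rule, with a 4-array mean of 3.87, had 0.15 and was not called (limma adjusted p 0.0535). Low members of the small subunit were rps15 with 0.44, rps4x with 0.49 and rps3, which helps form the channel where mRNA enters, with 0.51.

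Some members have roles beyond the ribosome. In mammals the proteins of rpl5 and rpl11 together bind and inhibit Mdm2, the regulator of p53. The rpl11 gene had 5.12 and 5.15 in progenitors, against 4.55 and 4.59 in glia, a difference of 0.57 ± 0.04 (limma adjusted p 0.00141). The rps6 gene, whose protein is the substrate of the S6 kinases downstream of mTOR, had 4.51 and 4.54 in progenitors, against 3.76 and 3.69 in glia. Both genes were separated between the groups on every array. The rps6 difference was 0.80 ± 0.05 (limma adjusted p 0.000772).

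The rps27a gene, which encodes ubiquitin fused to a small subunit protein, was higher by 0.73 ± 0.04 (limma adjusted p 0.000689). The rpl3 gene, whose protein reaches towards the site of peptide bond formation, was higher by 0.48 ± 0.04 (limma adjusted p 0.00204). The rpl7l1 gene encodes a relative of rpl7 found in ribosome precursors, and it was higher by 0.47 ± 0.04 (limma adjusted p 0.00214), against 0.61 ± 0.04 for rpl7 itself (limma adjusted p 0.00115). Relatives such as rps26 (0.64) and rps26l (0.84) may share labelled RNA on the array, and this was not tested.

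At the level of probes, 112 of the 117 member probes tested were higher, 2 were lower and 3 were not called, against 27.1% higher and 38.5% lower over all probes tested. The other 6 member probes, among them 1 each of rpl12, rpl36, rps3a and rps12, were not well above background on both arrays of either group and were not tested. All 66 genes have at least 1 probe that was well above background on all 4 arrays, and no member was saturated on any array. The 3 probes not called belonged to rps7, rps15a and rps26l. They had differences of -0.38, -0.22 and -0.18, while the brightest probes of these genes were higher by 0.63, 0.78 and 0.84.

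The orientation of the probes was compared after their values had been seen. Of the member probes that do not stand for their gene, 5 lie on the strand opposite to the brightest probe, among them 1 each in rps3a, rps7, rps12 and rps26l. All 5 had means below the 75th percentile, from -9.74 to -5.23, and of the 2 that were tested neither was called. Of the 52 such probes on the same strand, 49 were tested and 48 of these were higher, against 27.1% higher and 38.5% lower over all probes tested. With only 2 tested probes on the opposite strand, the strands were not compared by a test. The rpl5 probe, opposite in strand to the rpl5b probes and called lower, counts as its own gene. It is therefore not among the 5.

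Most member probes were among the brightest on the array, where few other probes were higher in progenitors. With a mean above 4 on the scaled axis, 87 of 87 member probes were higher, which is 100%, with a median difference of 0.62. Among the 484 probes of other genes above 4, 81 were higher, which is 16.7%, and the median difference was -0.29. This comparison by signal was added after the values had been seen.

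Among the bright member probes, brighter ones tended to have smaller differences. Over the 108 member probes with a mean above the 75th percentile, Pearson's r between mean signal and difference was -0.37 and Spearman's rho was -0.56. These points share arrays, and probes of a gene share its RNA. Over all 66 genes Pearson's r was 0.39 and Spearman's rho was -0.37, with rpl5 and rps24 dim and lowest. Over the 36 bright large subunit genes they were -0.03 and -0.43, and over the 26 bright small subunit genes -0.55 and -0.52. Among the 62 genes above that percentile, those with a mean under 4 had a median difference of 0.80 (10 genes). Those from 4 to 5 had 0.65 (22 genes), and those of 5 and over had 0.58 (30 genes).

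**Figure D3:**
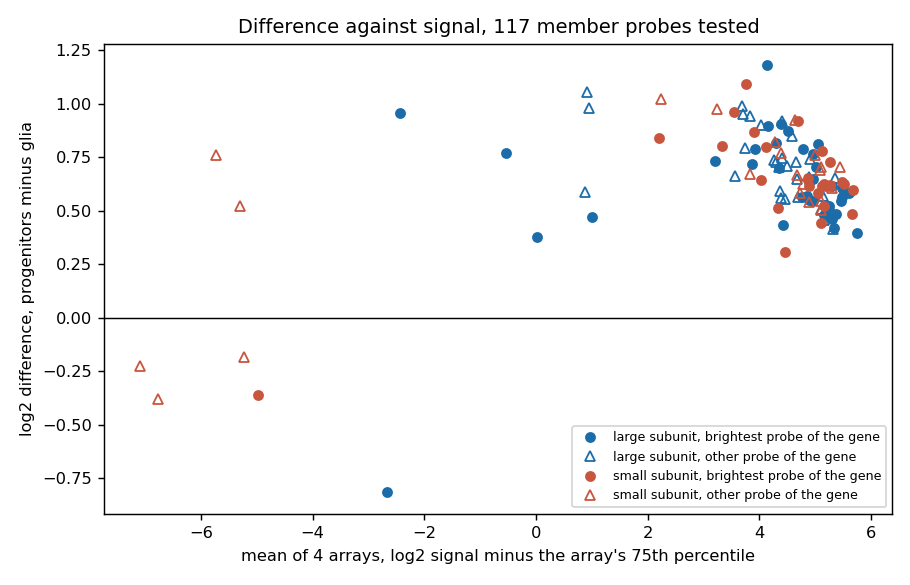
The log2 difference (progenitors minus glia, y axis) of the 117 member probes tested is set against the mean of the 4 arrays on the scaled log2 axis (x axis). Filled circles are the brightest probe of a gene and open triangles its other probes. The cloud right of 3 falls towards the right, and the points below 0 all have means below the 75th percentile.

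The same pattern appeared among probes of a single gene. In 21 of the 23 genes with several bright probes, the dimmest probe had a larger difference than the brightest. The same count was not made over other genes. These 23 genes include those compared by position below, so the patterns overlap. For rps7, a small subunit protein, the differences were 1.02 for the dimmest and 0.63 for the brightest.

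Position along the transcript, compared after the values had been seen, moved with the difference. In 13 member genes the outermost probes above the 75th percentile lay at least 100 bases apart on the same strand. In 12 of these 13 genes the probe nearest the 5' end had a larger difference than the probe nearest the 3' end, with rps2 the exception. The median difference was 0.76 at the 5' probes and 0.61 at the 3' probes. The 5' probe was also the dimmer one in 12 of the 13 genes, and in 257 of 309 other genes measured the same way.

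The 5' probe had the larger difference in 56.6% of the 309 other genes measured the same way, with a median of 0.02 for 5' minus 3', against 0.14 in the members. For rpl3, on the plus strand of chromosome 3 in danRer2, the probe at position 21404209 differed by 0.79 and the probe at 21406133 by 0.48. All 13 members were above 0 at the 3' probe as well as at the 5' probe. Of the 309 other genes, 99 were above 0 at the 3' probe and 118 at the 5' probe. RNA integrity is not given in the sources used here, and its part in the result was not tested.

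**Figure D4:**
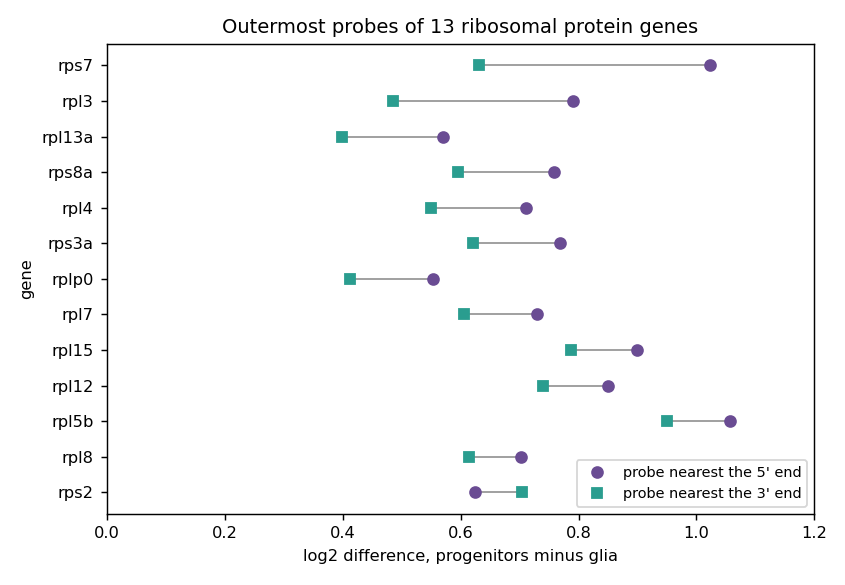
The log2 difference (progenitors minus glia, x axis) is shown for the probe nearest the 5' end (circle) and the probe nearest the 3' end (square) of 13 ribosomal protein genes. The circle lies right of the square in 12 genes, most in rps7 (1.02 and 0.63), and left of it in rps2 (0.62 and 0.70).

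Other proteins of the cytosolic ribosome moved with the members. All 3 that were tested were higher, against 27.5% of all genes tested, with a median of 0.48. The scaffold rack1, which sits on the small subunit, was higher by 0.67 ± 0.05 (limma adjusted p 0.00115), and faua, which encodes a ubiquitin-like protein fused to a small subunit protein, by 0.48 ± 0.04 (limma adjusted p 0.00200).

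The factors that work with the ribosome were more mixed, where 27.5% of all genes tested were higher and 40.5% were lower. Of 10 elongation factors tested, 7 were higher and 3 lower, and their median was 0.29. The subunits eef1g and eef1b2 of the elongation factor 1 complex were higher by 1.09 and 0.94, while eef1a2 and eef1a1a, forms of the factor that carries tRNA to the ribosome, had differences of -0.85 and -0.42. Of 30 initiation factors, 14 were higher, 5 lower and 11 not called, and the median was 0.16. Among them eif3ha was higher by 0.71 and eif4ebp1, which encodes an inhibitor of the cap-binding factor eIF4E, by 0.62, and pabpc1b, the poly(A) binding protein, and eif1 had differences of -0.30 and -0.27.

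Genes that build ribosomes were more often higher than lower. Of 59 biogenesis factors tested, 36 were higher, 3 lower and 20 not called, and the median was 0.23. The nucleolar genes npm1a and nop16 were higher by 1.09 and 1.17, and ltv1 and rcl1, which act in small subunit assembly in yeast, had differences of -0.43 and -0.30. Of 9 RNA polymerase I genes, 3 were higher, 1 lower and 5 not called, and the median was 0.06. Higher genes included polr1d with 0.59 and polr1b with 0.30, and ubtfl had -0.27. All genes tested had 27.5% higher and 40.5% lower. No test compared these lists with each other.

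**Figure D5:**
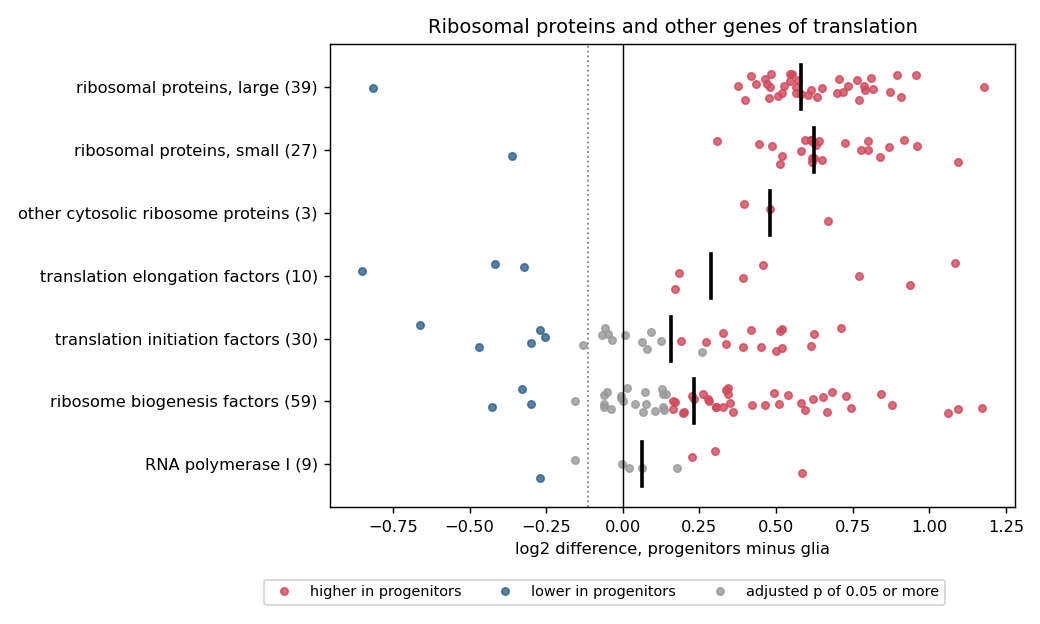
Each point is a gene tested, placed by its log2 difference (progenitors minus glia, x axis) within the list it belongs to (y axis, number of genes in brackets), black bars are list medians and the dotted line is the median of all genes tested (-0.12). The ribosomal protein medians are 0.58 (large) and 0.62 (small), against 0.48 for other ribosome proteins, 0.29 for elongation, 0.16 for initiation, 0.23 for biogenesis and 0.06 for RNA polymerase I.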

How the data were processed

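The authors deposited 1 scanner file per array with spot intensity on a linear scale, which the file headers credit to Feature Extraction 9.5.3.1 and the submitters' processing notes to 9.1. A deposited table of values, also intensity, equalled the background-subtracted signal of a spot for 100% of 21495 values on each array, within a relative tolerance of 0.001. The processed intensity was converted to log2 here and scaled by subtracting the 75th percentile of each array. Duplicate spots were averaged without outlier-marked spots. Probes well above background on both arrays of at least 1 group were kept (16596 of 21495). The test was limma's (version 3.58.1; lmFit, eBayes, no trend; R 4.3.3) on 2 arrays per group, with Benjamini-Hochberg adjustment over all probes kept and data.table (version 1.17.8) for input. The code was tested on simulated data. Genes were named through RefSeq accessions and symbols in the RefSeq gene list of GRCz12tu, and positions are those of danRer2 in the files. The number of arrays limits the precision.

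Named genes are the 5 highest and 5 lowest of each subunit, members more than 3 scaled median absolute deviations from the median, a set of members with known further roles, and 2 genes per direction from each list. A few members are not reported here by name or drawn in the plots that label genes, but count in all totals and medians. The members and lists were chosen with earlier results of these data known. The alternatives were other scalings, background corrections, filters, probe summaries and fits, and leaving out each array.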

Additional observations from a re-analysis of the deposited data

How the results depend on the processing

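The 4 summary results were the counts of 64 higher and 2 lower genes and the subunit medians of 0.58 (large) and 0.62 (small). Scaling by the array median gave medians of 0.36 and 0.40, with all probes shifted by -0.22, and ended the calls of rpl36 (0.15) and rps27.2 (0.09); it moved the split over all probes to 18.2% higher and 58.8% lower, against 27.1% and 38.5%. Quantile normalization gave 0.61 and 0.64, normexp 0.64 and 0.65 with 1 gene lower (rps24 lost its call at -0.64), the mean of a gene's probes 0.63 and 0.61, and the values deposited by the authors 0.53 and 0.53. Scaling by the spike-in controls, whose median signals were 2873 and 2832 on the progenitor arrays and 5287 and 5723 on the glia arrays, put the median of all probes at 0.99, gave medians of 1.68 and 1.72 and 0 genes lower with 65 higher, and turned rpl5 to 0.28 and rps24 to 0.74, while 92.3% of all probes were higher. That scaling used the median signal of 10 spike-in probes on 320 spots. The median difference over all spike-in spots was smaller in size, at -0.57, and scaling by it was not run. Over all probes, 9.54% were higher and 14.1% lower with normexp. These shares were 25.8% and 39.1% with quantile normalization, and 21.6% and 42.1% with the values deposited by the authors. Leaving out 1 array gave a large subunit median of 0.56 to 0.62 and a small subunit median of 0.61 to 0.65. Whichever array was left out, 64 of 66 genes had a difference above 0. The labels do not say that replicate numbers pair the samples, and same-numbered arrays deviated together with r = 0.06 over 16596 probes, with 2 pairs only. A fit with the replicate block kept the calls of 66 of 66 genes (64 higher, 2 lower). Of the remaining alternatives, the intensity trend, no filter and the filter on all arrays kept those 66 calls too. The causes of these moves were not tested. With 2 arrays per group, spread is poorly known for any 1 gene.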

Other observations

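The array holds 79 further probes that the naming rule does not take but that the files describe as ribosomal proteins, or that only an older name links to one, and they were collected after the files had been read. Of the 64 tested, 38 were higher, 14 lower and 12 not called, with a median difference of 0.44, against 27.1% higher and 38.5% lower over all probes tested. They fill gaps among the members: no member probe stood for the stalk proteins P1 and P2 or for L22, L31, S16 and S19. The probe described as P2 had 5.42 and 5.44 in progenitors, against 4.25 and 4.28 in glia, and was higher by 1.16, and 2 probes described as P1 were higher by 1.99 and 0.63. The P1 probe with 1.99 was dim, with a 4-array mean of -3.85. The P1 probe with 0.63 overlaps, on chromosome 1 of danRer2, a probe described as S29 that was not called (0.10). Whether they measure P1 was not tested. Both groups were separate at the P2 probe. Probes described as L22 were higher by 1.11 and 0.61. Of 2 probes described as S19, 1 was higher by 0.32 and 1 was not called (-0.47), and a probe linked to rps19 by an older name was at least 1.18-fold lower in progenitors, where neither array had it well above background.

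Of the called probes, 6 had differences above that of the highest member and 5 below that of the lowest. A probe described as S16 had -4.42 and -4.45 in progenitors, against -8.28 and -8.53 in glia, where neither array had it well above background. It was at least 14.3-fold higher in progenitors, measured against the lowest signal well above background. The probe described as L31 had -0.49 and -0.52 in progenitors, against -2.91 and -2.87 in glia, and was higher by 2.39. Among the lowest, a probe linked to rps4x had -4.78 and -3.99 in progenitors, against -3.39 and -3.37 in glia, which is 2.01-fold lower, and a probe described as S30 had a difference of -0.97. Probes described as L37 and linked to rpl30 were at least 1.27-fold and 1.19-fold lower, and a probe linked to rps27a was called lower at -1.35. These last 3 were not well above background in progenitors, and for the rps27a probe that background allows no fold. All of these probes lie below their arrays' 75th percentile. The L31 probe lies least far below it and was well above background on all 4 arrays. Whether these probes measure the named proteins was not tested. In danRer2 the rps4x and rps27a probes lie on the strand opposite to the member probes of these genes. The rpl30 probe lies on the same strand as its member probe.

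Of 5 probes described as S24, 4 were lower, with differences from -0.43 to -0.25, as the member probe named rps24 was, and 1 was higher by 0.55. The brightest had 2.83 and 2.80 in progenitors, against 3.14 and 3.10 in glia, a difference of -0.30 (limma adjusted p 0.00711). Another lower probe, with a 4-array mean of 1.67, had -0.25 (limma adjusted p 0.0126). The other lower probes had means of -0.26 and -3.48, and the higher probe had -3.06. On chromosome 13 of danRer2 the higher probe lies on the plus strand and the brightest on the minus strand. Whether these measure rps24 was not tested. Of 4 probes described as S30, 2 were higher and 2 lower.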
